A study of Mus musculus with 5 samples.

Results

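MHC class I molecules show peptides from a cell's own proteins to CD8 T cells. The proteasome cuts the proteins, the TAP transporter moves the peptides into the endoplasmic reticulum, and tapasin holds an empty class I molecule beside TAP until a peptide is bound. Interferon gamma replaces catalytic subunits of the proteasome with the immunoproteasome subunits and raises most of this pathway, and NLRC5 drives transcription of class I genes from inside the nucleus. B16 melanoma cells are known for little surface class I until they meet interferon gamma.

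The 10 genes described here are the class I chains H2-K1, H2-D1 and H2-T23, the peptide transport and loading genes Tap1, Tap2 and Tapbp, the immunoproteasome subunits Psmb8, Psmb9 and Psmb10, and the transactivator Nlrc5. They were taken by name from the 750 endogenous probes of a NanoString nCounter panel of mouse cancer immunity genes. RNA came from live CD45- cells sorted from tumors of B16-OVA, a B16 melanoma line that makes ovalbumin. The cells grew under the skin of C57BL/6 mice that were Foxp3YFP-Cre (WT, n = 3) or Prdm1fl/flFoxp3YFP-Cre (KO, n = 2). All mice received NP-OVA into the peritoneum, in complete Freund's adjuvant at day 0 and in incomplete adjuvant at day 7, and tumors measured at most 1.5 cm3. Foxp3-driven Cre deletes Prdm1, which encodes Blimp1, in regulatory T (Treg) cells, so the counted cells are not those that carry the deletion by design, and both groups carry the Cre. The labels give no age and name samples rather than animals, so the tests measure the spread between samples.

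Endogenous counts summed to between 369515 and 461822 per sample, and background, 2 SD above the mean of the negative control probes in a sample, lay between 13.1 and 17.7 counts. Prdm1 had at most 10 raw counts and Foxp3 at most 5, below background in every sample, and so did not check the genotype. Ptprc, which encodes CD45, had at most 4. Of 24 T and NK cell markers on the panel 4 were above background in at least 2 samples, of 11 B cell markers 0, of 27 myeloid markers 10, of 10 endothelial markers 3 and of 8 fibroblast markers 7. Only 2 of 12 listed melanocyte markers, S100b and Mcam, were on the panel, and both were above background in every sample. All 10 genes of the class I pathway were above background in all 5 samples, with raw counts from 62 to 12105.

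Of the 10 genes, 8 lie on mouse chromosome 17 and 2, Psmb10 and Nlrc5, on chromosome 8. In the order of protein-coding genes Psmb9, Tap1, Psmb8 and Tap2 are direct neighbours, in this order, and the class II genes H2-DMb1 and H2-Ob flank them. The classical chains H2-K1 and H2-D1 carry the compact promoter that class I genes are known for. It holds an NF-κB site (κB), an interferon-stimulated response element (ISRE) and the module on which NLRC5 acts, of which the CRE-like box is a part. Both stretches are shown because they hold these letters in the same order and spacing. Capitals mark, from left to right, the κB match GGGATTCCC, the match to the ISRE core GAANNGAAA on the other strand, and the CRE-like match TGACG. The RefSeq sequences are from GRCm38.p6, at chr17:34000382-34000459 (minus strand) and chr17:35262922-35262999 (plus strand), and lie shortly before the annotated gene starts.
H2-K1: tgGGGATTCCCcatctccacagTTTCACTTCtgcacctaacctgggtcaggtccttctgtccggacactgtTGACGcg
H2-D1: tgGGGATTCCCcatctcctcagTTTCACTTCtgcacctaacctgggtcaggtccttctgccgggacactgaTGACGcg
Over these 78 bases the promoters were identical at 74 positions. Among 32851 annotated promoter windows of mouse genes (250 bases before to 50 after the start), searched on both strands, 0.353% held the κB letters, 7.52% the ISRE core and 20.8% the CRE-like letters. Of the 8 members with an annotated window, 2 held the κB letters and 2 the ISRE core, in both cases H2-K1 and H2-D1, and 4 the CRE-like letters. The ISRE core letters were chosen after these promoters had been read. The stretches of H2-K1 and H2-D1 are nearly the same sequence and do not count as separate observations. The shares were not tested. The interferon gamma activated site (GAS), searched as TTCNNNGAA, was in the window of 1 member, Psmb8, and in 8.3% of all windows.

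Psmb9 and Tap1 are transcribed away from each other. The stretch between their annotated starts is shown because it lies before both genes, at chr17:34187331-34187555 (plus strand), with the CRE-like match in capitals.
Psmb9-Tap1: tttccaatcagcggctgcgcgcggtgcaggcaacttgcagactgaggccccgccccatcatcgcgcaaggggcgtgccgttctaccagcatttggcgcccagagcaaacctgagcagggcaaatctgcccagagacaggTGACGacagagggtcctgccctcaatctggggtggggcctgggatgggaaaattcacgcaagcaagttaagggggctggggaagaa
These 225 bases held 1 CRE-like match and 0 matches to the κB, ISRE core and GAS letters. A match is a string of letters and no measured site.

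In none of the 10 genes were the KO samples both above or both below all WT samples. Levels are given as normalized counts, raw counts divided by a factor from the 20 housekeeping probes, and compared within a gene only, since probes differ in efficiency. In sorted bulk cells fewer cells of a type and less RNA per cell cannot be told apart. H2-K1, a classical chain that presents peptides to CD8 T cells, had 1262, 3253 and 2045 normalized counts in WT 1, 2 and 3 and 1865 and 3437 in KO 1 and 2. KO 2 was highest and WT 1 lowest, with KO 1 inside the WT range. WT averaged 2187 ± 1003 (SD, n = 3) and KO 2651 ± 1111 (SD, n = 2), and the log2 fold change was 0.28 (SE 0.46, 95% confidence interval −0.91 to 1.46, edgeR adjusted p = 0.901). H2-D1, the other classical chain of these mice, had 4592, 12638 and 9095 normalized counts for WT and 7029 and 11940.3 for KO. Here both KO samples lay between WT 1 and WT 2. Its log2 fold change was 0.11 (SE 0.47, interval −1.08 to 1.31, edgeR adjusted p = 0.978). H2-T23 encodes Qa-1, a nonclassical molecule that shows leader peptides of other class I chains to NK cell receptors. It had 64.9, 399 and 152 normalized counts for WT and 105 and 251 for KO, with both KO samples inside the WT range. Its log2 fold change of −0.21 had the widest interval of the members (−2.30 to 1.88, SE 0.82, edgeR adjusted p = 0.974). The class I chains are closely related in sequence, and cross-hybridisation between their probes was not tested.

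**Figure D1:**
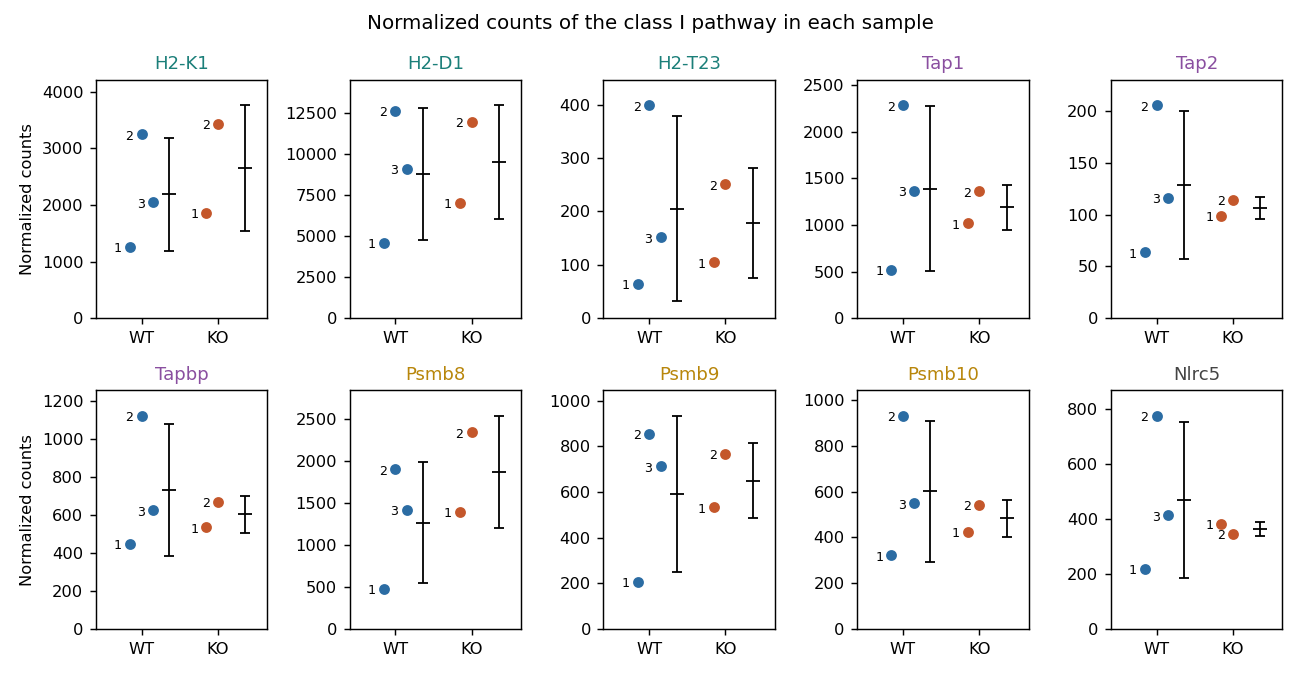
Normalized counts (linear axis from 0) of the 10 genes in WT (blue, n = 3) and KO (orange, n = 2), each point a sample with its number beside it, and to its right the group mean with SD bars. WT 1 is the lowest point in every panel, and the KO points overlap the WT points in every panel.

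Peptide transport and loading genes had lower means in KO, and none passed the test. Tap1, which encodes a subunit of the transporter, had 521, 2282 and 1366 normalized counts for WT and 1018 and 1359 for KO. WT 2 was far above the rest, and the KO samples lay between WT 1 and WT 3. The log2 fold change was −0.23 (SE 0.60, interval −1.77 to 1.32, edgeR adjusted p = 0.958). Tap2, its partner subunit, was counted at a lower depth, with 62, 193 and 109 raw counts for WT and 113 and 116 for KO. The exact Poisson interval of its lowest count, 47.5 to 79.5, covers counting error only and does not reach the counts of the other samples. Normalized, these were 63.8, 206 and 117 for WT and 98.9 and 114 for KO, in the same order of samples as Tap1 (log2 fold change −0.27, SE 0.50, edgeR adjusted p = 0.91). Tapbp, which encodes tapasin, had 449, 1119.8 and 624 normalized counts for WT and 535 and 669.8 for KO. KO 2 lay just above WT 3, and the log2 fold change was −0.28 (SE 0.41, interval −1.32 to 0.77, edgeR adjusted p = 0.884).

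The immunoproteasome subunits differed among themselves in the placing of the KO samples. Psmb8, which encodes the subunit with chymotrypsin-like activity, had 476, 1900.5 and 1421 normalized counts for WT and 1397 and 2339.7 for KO. KO 2 was the highest sample, and KO 1 lay just below WT 3. WT averaged 1266 ± 725 (SD, n = 3) and KO 1868 ± 667 (SD, n = 2), and the log2 fold change of 0.56 was the largest of the 10 in size (SE 0.59, interval −0.95 to 2.08, edgeR adjusted p = 0.845). Psmb9, the catalytic subunit whose gene adjoins Tap1, had 207, 855 and 713 normalized counts for WT and 532 and 766 for KO, with both KO samples inside the WT range (log2 fold change 0.13, SE 0.60, edgeR adjusted p = 0.978). Psmb10, which takes the place of the constitutive subunit Psmb7, had 322, 931 and 549.9 for WT and 424 and 542 for KO. Its KO samples lay between WT 1 and WT 3 (log2 fold change −0.32, SE 0.46, interval −1.48 to 0.85, edgeR adjusted p = 0.884).

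Ratios of raw counts within a sample do not depend on the scaling. Relative to Psmb7, Psmb10 stood at 0.113, 0.314 and 0.160 for WT and 0.140 and 0.171 for KO. The same ratio was 0.166, 0.640 and 0.413 for WT and 0.460 and 0.739 for KO for Psmb8. For Psmb9 it was 0.0723, 0.288 and 0.207 for WT and 0.175 and 0.242 for KO. All 3 ratios were lowest in WT 1 and overlapped between the groups, and for Psmb8 KO 1 lay just above WT 3, where its normalized count lay just below.

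Nlrc5, the transactivator, had 218, 775 and 414 normalized counts for WT and 382 and 346 for KO. Both KO samples lay between WT 1 and WT 3, close to each other. WT averaged 469 ± 283 (SD, n = 3) and KO 364 ± 25.6 (SD, n = 2), and the log2 fold change was −0.36 (SE 0.53, interval −1.71 to 0.98, edgeR adjusted p = 0.884).

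Of the 10 genes, 4 had higher and 6 lower means in KO, and 39.4% of the 401 tested probes had higher means. With edgeR's quasi-likelihood test 0 of 10 passed an adjusted p of 0.05, as did 0% of tested probes. At an unadjusted p under 0.05 the count was again 0 of 10, against 6.23% of tested probes. DESeq2 and limma also called 0 of the 10 at either threshold. The groups overlapped in all 10 genes, while 23.7% of tested probes had groups that did not. The median log2 fold change was −0.22, beside −0.07 for all tested probes. The intervals do not exclude moderate changes. For H2-K1 they span a KO level from 0.533 to 2.76 times that of WT, for Tapbp from 0.399 to 1.70 times, and for H2-T23 from 0.203 to 3.68 times.

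A single sample decided on which side of 0 most of the genes fell. Without WT 2 all 10 genes had higher means in KO, and the median log2 fold change became 0.40. Without WT 1 only Psmb8 (0.17) and, barely, H2-K1 (0.00090) were higher, and the median was −0.57. Without KO 2 only Psmb8 was higher (median −0.35), and without KO 1 5 of 10 were (median 0.13). Psmb8 kept a higher mean in KO with each sample left out, between 0.14 and 0.98 on the log2 scale, and the other 9 genes changed direction at least once. In none of these fits did a gene of the pathway reach an unadjusted p under 0.05. With a KO sample left out the KO group is 1 sample, assumed to vary as the WT samples do, so these 2 fits bear little on whether a difference exists.

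**Figure D2:**
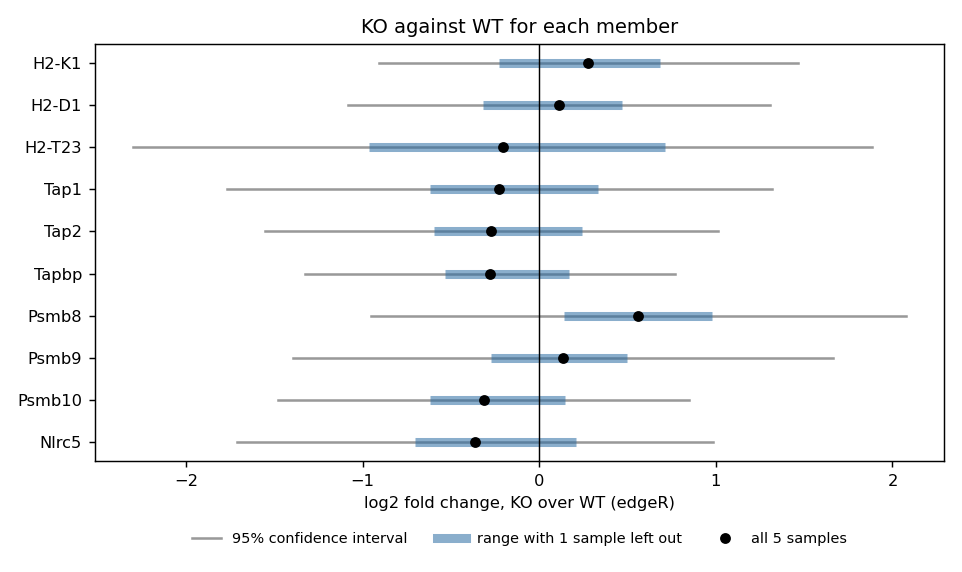
log2 fold change of KO over WT for the 10 genes (horizontal axis, edgeR), with the value from all 5 samples as a black point, its 95% confidence interval as a thin grey line and the range over fits with 1 sample left out as a blue bar. Every interval crosses 0, and the blue bar of Psmb8 alone stays on one side of it.

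The 10 genes followed similar orders across the samples. All 10 were lowest in WT 1, as were 29.2% of tested probes. In WT 2 8 genes were highest, as were 33.2% of tested probes, and the other 2, H2-K1 and Psmb8, were highest in KO 2. KO 1 lay between WT 1 and WT 2 for all 10. The order WT 1, KO 1, WT 3, KO 2, WT 2 from low to high was shared by H2-D1, H2-T23, Tapbp and Psmb9, and held for 2.49% of tested probes. Tap1, Tap2 and Psmb10 had KO 2 below WT 3, and Nlrc5 was the only one with KO 2 below KO 1.

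The spread within WT was wide. WT 2 had between 2.49 and 6.15 times the normalized count of WT 1, from Tapbp to H2-T23, with a median of 3.39 over the 10 genes against 1.09 over all tested probes. A ratio of at least 2.49 was found for 51 tested probes (12.7%), the 10 genes included. Between the KO samples the genes spread less evenly. KO 2 over KO 1 was 1.84 for H2-K1, 1.70 for H2-D1 and 2.39 for H2-T23, whereas it was 1.34 for Tap1, 1.16 for Tap2 and 1.25 for Tapbp. The immunoproteasome subunits had 1.68 (Psmb8), 1.44 (Psmb9) and 1.28 (Psmb10), and Nlrc5 had 0.905. The median over all tested probes was 1.07.

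**Figure D3:**
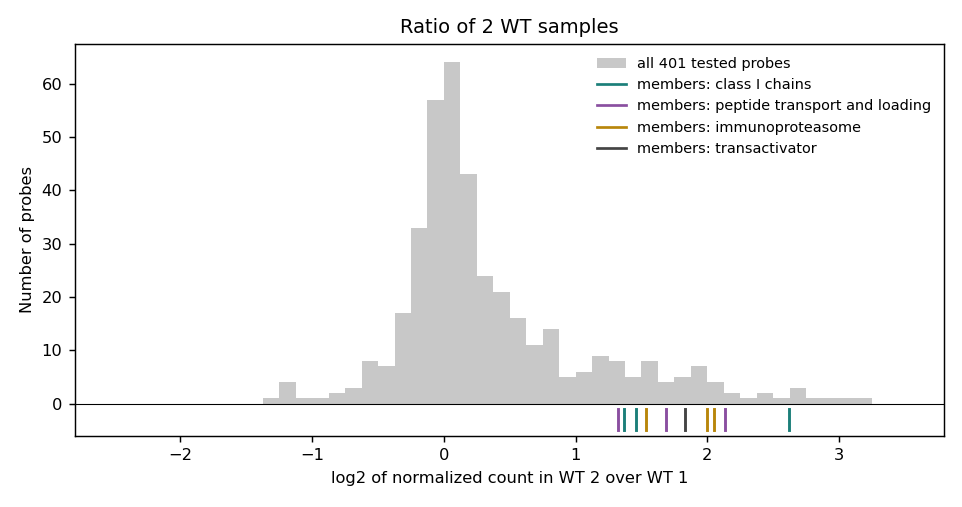
Number of tested probes (vertical axis) by the log2 ratio of the normalized count in WT 2 over WT 1 (grey bars, 401 probes), with the 10 genes as coloured ticks below the axis, each colour a role. The ticks stand in the right tail, from Tapbp at a ratio of 2.49 to H2-T23 at 6.15.

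Ratios between members were also taken within each sample. Of the 45 pairs of members, 11 had ratios that did not overlap between KO and WT, near the 22.5% found over all pairs of tested probes. Psmb8 was the numerator in 7 of the 11. The ratio of Psmb8 to Tap1 was 0.913, 0.833 and 1.04 for WT and 1.37 and 1.72 for KO. The ratio of Psmb8 to Psmb10 was 1.48, 2.04 and 2.58 for WT and 3.29 and 4.32 for KO. H2-K1 to Psmb10 stood at 3.92, 3.49 and 3.72 for WT and 4.39 and 6.35 for KO. These pairs were picked by their ratios and were not tested.

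The probes nearest to the mean pattern of the 10 genes were sought over the 5 samples. Likeness was the root mean square (RMS) difference of log2(normalized count + 1), each gene centred on its own mean. Nearest of the other probes were Tnfrsf14, which encodes the receptor HVEM (RMS 0.126), Ctss, a lysosomal protease that trims the class II invariant chain (0.200), the interferon-induced helicase Ddx60 (0.203), H2-M3, a nonclassical class I chain that presents formylated peptides (0.224), and Socs1, an inhibitor of JAK signaling (0.230). Tnfrsf14 had 46.3, 138 and 90.9 normalized counts for WT and 70.9 and 89.8 for KO, low in WT 1 and high in WT 2 as the members were. H2-M3 had 47.4, 118 and 92.0 for WT and 80.5 and 136 for KO, highest in KO 2 like H2-K1. Ctss had 13 raw counts in WT 1, below the background of 13.9 in that sample. Among the members themselves the RMS ran from 0.134 for Tap1 to 0.359 for Psmb8.

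**Figure D4:**
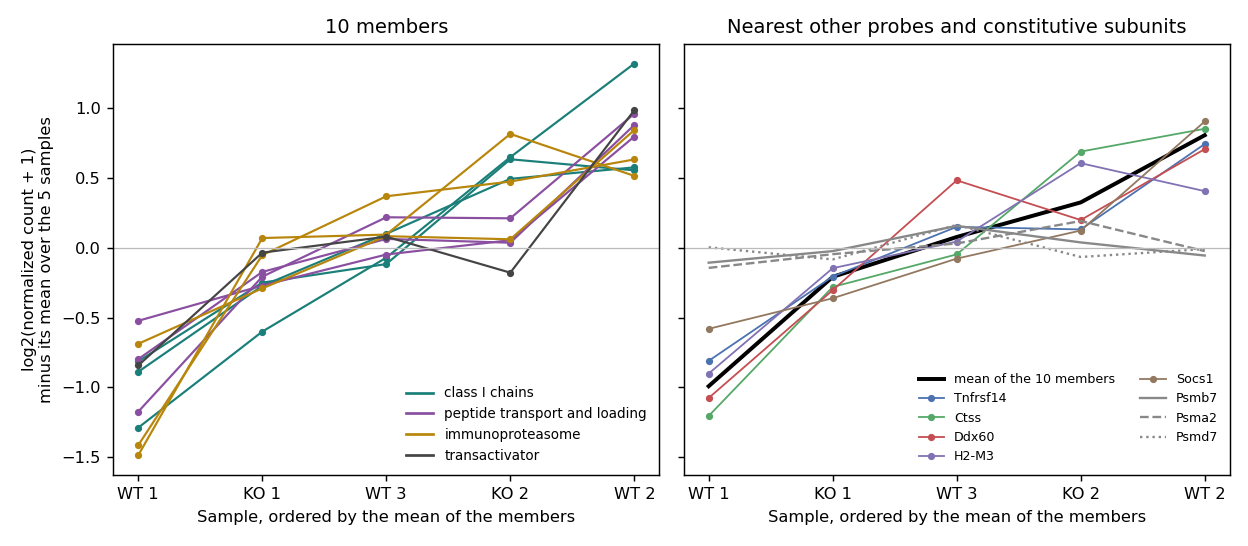
log2(normalized count + 1) minus the mean over the 5 samples (vertical axis), with samples ordered along the horizontal axis by the mean of the 10 genes. The left panel holds the 10 genes coloured by role, and the right panel their mean (black), the 5 nearest other probes (colours) and 3 constitutive proteasome subunits (grey). The mean of the 10 genes goes from −0.99 in WT 1 to 0.80 in WT 2, and the grey lines stay close to 0.

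Constitutive proteasome subunits varied little between samples. Psmb7, a catalytic subunit, had 2865, 2968 and 3438 normalized counts for WT and 3034 and 3167 for KO, a log2 fold change of 0.0049 with an interval from −0.31 to 0.32 (edgeR adjusted p = 0.993). Psma2, a structural subunit of the core, and Psmd7, a subunit of the regulatory particle, had log2 fold changes of 0.12 and −0.13, within intervals of −0.19 to 0.44 and −0.41 to 0.15. These 3 were the tested genes of the list of other processing and loading genes, 2 with higher and 1 with lower means, and their median WT 2 over WT 1 was 1.04. Among other class I and class I-like chains 3 were tested. H2-M3 (log2 fold change 0.33) and Mr1, which presents vitamin metabolites (0.01), had higher means in KO. H2-Q10, a secreted chain (−0.25), had a lower mean. Its raw counts, 18, 16 and 21 for WT and 17 and 18 for KO, lay close to background. None of the 3 passed the test.

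Regulators of class I transcription were tested for 20 genes, of which 6 had higher and 14 lower means in KO, and their median was −0.19 on the log2 scale. None passed the adjusted threshold, and 2 of 20 had an unadjusted p under 0.05, against 6.23% of tested probes. These were the NF-κB subunits Relb (−1.09, SE 0.18) and Nfkb2 (−0.54, SE 0.14), each with an edgeR adjusted p = 0.487. Relb had 255, 332 and 291 normalized counts for WT and 131 and 143 for KO, without overlap, which held for 23.7% of tested probes. Irf3 and Irf7, transcription factors of the interferon response, had log2 fold changes of −0.32 and −1.22 (edgeR adjusted p = 0.71 for both). Irf1, a factor known to act on Tap1, Psmb9 and class I promoters, was picked after its values were seen. It had 564, 2433 and 1092 normalized counts for WT and 1027 and 823 for KO. It was lowest in WT 1 and highest in WT 2 like 8 of the members and 12.5% of tested probes. Its KO 2 lay below KO 1, which among the members held for Nlrc5 only. Of the 20 regulators 5 were lowest in WT 1 and 10 highest in WT 2. The part of Irf1 in the pattern was not tested.

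Genes of the interferon gamma response were mostly highest in WT 2, as 8 of the members were. Of 12 tested, 11 were highest in WT 2 and 0 in KO 2, and 6 were lowest in WT 1. Cxcl10, a chemokine, had 1573, 4202 and 3854 for WT and 1510 and 1760 for KO, near WT 1, while all 10 members were higher in both KO samples than in WT 1. Of the 12 genes 1 had a higher and 11 a lower mean in KO, and their median was −0.61 on the log2 scale. The chemokine Cxcl11 alone of the 12 had an unadjusted p under 0.05, against 6.23% of tested probes (log2 fold change −1.93, SE 0.59, edgeR adjusted p = 0.704). Ifi27, an interferon-induced gene, had −0.33 (edgeR adjusted p = 0.744).

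MHC class II genes, which present peptides from outside the cell, shared the low WT 1 with the members. All 7 tested were lowest in WT 1, 5 were highest in KO 2 and 2 in WT 2, and 6 had higher and 1 a lower mean in KO (median log2 fold change 0.67). Summed over 10 class II probes the level was 861, 6373 and 2596 normalized counts for WT and 3312 and 9980.4 for KO. Cd74, which encodes the invariant chain, made up 3572 of the sum in WT 2 and 6156 in KO 2. Of the 10 probes 3 were above background in no sample. H2-Aa, a class II chain, had 199, 1460 and 685 for WT and 888 and 2304 for KO (log2 fold change 1.03, SE 0.85, edgeR adjusted p = 0.824). Ciita, the class II relative of Nlrc5, had 11, 45 and 22 raw counts for WT and 24 and 13 for KO, below background in WT 1 and KO 2 and above it in the other samples.

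Ligands of NK cell receptors, and class I and other receptors of NK cells and other immune cells, were mostly at background. The ligand Ulbp1, picked after its values were seen, was above background in every sample. It had 225, 206 and 257 raw counts for WT and 296 and 217 for KO. Of 22 on the panel 6 were tested, 1 with a higher and 5 with lower means in KO (median log2 fold change −0.26), and none passed the test. Klrd1, the partner chain of the Qa-1 receptor, had at most 18.7 normalized counts in any sample (log2 fold change 0.58, edgeR adjusted p = 0.824).

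Markers of other cells were set beside the pattern of the members. Summed over 27 probes, myeloid markers had 591, 683 and 575 normalized counts for WT and 714 and 711 for KO, with both KO samples above every WT sample. Of these probes 14 were above background in no sample. Of the 10 tested, 5 had higher and 5 lower means in KO, so the sum does not speak for the list. The macrophage gene Cd68, part of the sum, had the smallest p of this list (log2 fold change 0.61, SE 0.25, edgeR adjusted p = 0.71). It had 141, 210 and 128 for WT and 243 and 246 for KO, also without overlap, which held for 23.7% of tested probes. T and NK markers summed to between 144 and 189 normalized counts over 24 probes. Endothelial markers were between 1324 and 1624 for WT and 1210 and 1239 for KO over 10 probes, highest in WT 2. Of these probes 7 were above background in no sample, and Eng alone made up 1012 of the 1324 in WT 1. The 3 tested had lower means in KO, and 0 of them had an unadjusted p under 0.05 in the edgeR fit. Fibroblast markers, over 8 probes, were at 24012, 28626 and 26263 for WT and 26806 and 34717 for KO, lowest in WT 1 and highest in KO 2. Vim, an intermediate filament gene, made up 22668 of the sum in WT 1. The less abundant collagen gene Col1a1, picked after its values were seen, had 20.6, 58.7 and 20.3 for WT and 37.6 and 5.92 for KO. It was highest in WT 2 as 8 of the members were, but lowest in KO 2, at 6 raw counts and below background. No member was lowest in KO 2. Of the 7 tested fibroblast markers 3 were highest in WT 2, 2 in KO 2, 1 in WT 1 and 1 in KO 1. Mcam had 1727, 1916 and 1668 for WT and 2684 and 2607 for KO, and S100b 1979, 1987 and 1894 for WT and 1724 and 1849 for KO. Their part in the pattern was not tested.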

How the data were processed

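RNA (100 ng per sample) of sorted CD45- cells was counted by the authors on an nCounter Flex System. The deposited raw counts cover 784 probes (750 endogenous, 20 housekeeping, 8 negative and 6 positive controls), with nothing subtracted or scaled. The deposited normalized signal is a multiple of the raw count within a sample, with a floor of 15, and was used as an alternative only. Columns were matched to samples through sample codes, and groups through titles.

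Scaling factors were geometric means over the housekeeping probes. Of 750 endogenous probes, 401 were above background (mean plus 2 SD of the negative probes) in 2 samples or more and formed the tested set. The effect of genotype, the only term, was tested 2-sided with glmQLFit and glmQLFTest of edgeR 4.0.16 (R 4.3.3) on the raw counts, with Benjamini-Hochberg adjustment over the 401 probes and a threshold of 0.05. SE is the size of the coefficient divided by the square root of F. The tests were checked on simulated counts.

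Named genes were the 10 members, of each other list the up to 4 tested genes of smallest p, the 5 nearest probes, and Prdm1, Foxp3 and Ptprc. A gene that this rule names is not reported here. Members and lists were chosen with earlier results of these data known, and the ISRE core letters after the promoters had been read. All 10 members matched RefSeq (GRCm38.p6) by accession. Tap2 and Nlrc5 have no entry in the promoter table used. Each sample was left out in turn, and the replicate number was tried as a block. Scaling by TMM, by DESeq2 size factors, by positive controls and by the total count, no filter, a mean raw count of at least 50, background subtraction, robust dispersion, DESeq2 1.42.0, limma 3.58.1, the methods' t-test on log2(normalized count + 1) and limma on the deposited signal were the other alternatives.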

Additional observations from a re-analysis of the deposited data

How the results depend on the processing

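No gene of the pathway reached an unadjusted p under 0.05 in any of the alternatives run, and the counts of members past either threshold were 0 throughout. The median log2 fold change of the 10 genes, −0.22, was −0.13 with TMM, −0.15 with DESeq2 size factors, −0.07 with positive controls only (where the median of all tested probes moved from −0.07 to 0.07) and above 0 on a mean of logs, at 0.02 with limma and the methods' t-test and 0.04 on the deposited signal. A mean of logs gives a low sample more weight than a mean of counts does. H2-T23 was at 0.037 with limma and the methods' t-test and 0.064 on the deposited signal, and Tap1 at 0.00043 and 0.025. With the replicate block the median was 0.04 and Tap1 stood at 0.10, and 0 members were called. The numbers were not shown to pair the samples. Over 401 probes, deviations from the group mean correlated at 0.295 for WT 1 with KO 1 and 0.00025 for WT 2 with KO 2. The largest value, 0.381, was for WT 3 with KO 2, which share no number. With 2 KO samples the KO deviations mirror each other, so these correlations cannot decide the pairing. With 1 sample left out, the log2 fold change ranged from −0.23 to 0.68 for H2-K1, −0.32 to 0.47 for H2-D1, −0.97 to 0.71 for H2-T23, −0.62 to 0.33 for Tap1, −0.60 to 0.24 for Tap2, −0.53 to 0.17 for Tapbp, −0.27 to 0.50 for Psmb9, −0.62 to 0.15 for Psmb10 and −0.71 to 0.21 for Nlrc5, and from 0.14 to 0.98 for Psmb8. Over all probes DESeq2 called 3 at the adjusted threshold and the other fits 0. At an unadjusted p under 0.05, the count over all probes was 50 without WT 1 and 10 without KO 2, against 25. The lowest raw count of a member was 62, above the highest background level of 17.7.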
